A study of Arabidopsis thaliana with 12 samples.

Results

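The 41 genes described here encode the histones of Arabidopsis thaliana. They were chosen by their AGI gene codes, with no measured value in the rule but with earlier results of these data known. The list holds 8 genes for H4, 8 for H3, 10 for H2B, 12 for H2A and 3 for the linker histone H1. All 41 were among the 33331 genes of the count table, and all 41 had enough counts to be tested, as did 15082 genes in all. The assay, 3′ RNA-seq, samples each mRNA near its 3′ end, and it was run on shoots taken whole from plants 2 weeks old, kept at 22 °C in constant light. The genotypes were aig2abc pad4, which carries the mutations of both parents, aig2abc, a mutant labelled for the genes AIG2A, AIG2B and AIG2C, pad4, a mutant of the immune regulator PAD4, and the wild type Col-0. Each genotype had 3 libraries. No mutagen or allele is given in the labels, nor whether the 3 libraries of a genotype were made from different plants. The p-values therefore reflect library-to-library spread alone, part or all of which may be technical.

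Histones package DNA. Pairs of H2A, H2B, H3 and H4 form the nucleosome core, and H1 binds the linker DNA between nucleosomes. In plants the replicative histones (H4, H3.1, canonical H2A and most H2B) are made mainly while DNA is copied, whereas H3.3 is deposited throughout the cell cycle and marks transcribed genes. Among the H2A variants, H2A.Z sits around transcription start sites and at genes that respond to the environment, H2A.X is phosphorylated where DNA breaks, and H2A.W binds heterochromatin. In this list H3 divides into 5 H3.1 and 3 H3.3 genes, and H2A into 4 canonical, 2 H2A.X, 3 H2A.W and 3 H2A.Z genes.

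Library totals ran from 5542138 to 8330632 counts in aig2abc pad4, from 584342 to 3005199 in aig2abc, from 7991739 to 10697612 in pad4 and from 6561011 to 9742035 in Col-0, so the aig2abc libraries were the shallowest. The histone genes together took between 0.965% and 1.39% of the counts of a library. The 3 aig2abc libraries also stood apart from the rest. Along the main direction in which libraries of one genotype differ from each other, computed on the other 9 libraries and called the replicate axis here, aig2abc scored -97.9, -108 and -85.0. The scores were 33.4, 23.2 and -63.6 in aig2abc pad4, 28.7, -16.1 and -36.9 in pad4 and 59.8, -12.3 and -16.2 in Col-0. No other library reached the aig2abc scores, so genotype and position on this axis cannot be told apart for aig2abc, and a fit with the axis as a covariate is given beside the results. The targeted gene AIG2C (AT3G28950) had 5, 2 and 2 counts in aig2abc pad4, 4, 0 and 4 in aig2abc, 346, 348 and 375 in pad4 and 238, 321 and 560 in Col-0. AIG2A (AT3G28930) had 209, 227 and 209 CPM (counts per library set to a common total) in aig2abc pad4, 109, 77.2 and 85.02 CPM in aig2abc, 50.5, 50.2 and 46.8 CPM in pad4 and 73.2, 64.3 and 62.6 CPM in Col-0. AIG2B (AT3G28940) had 84.5, 125 and 353 CPM in aig2abc pad4, 575, 838 and 714 CPM in aig2abc, 579, 1128 and 1260 CPM in pad4 and 500, 844 and 963 CPM in Col-0. The genotypes labelled with the same aig2abc mutations thus differed at these targeted genes, AIG2A being higher in aig2abc pad4 than in aig2abc by 1.24 on the log2 scale (edgeR adjusted p = 0.00269) and AIG2B lower, with a log2 change of -1.92 (adjusted p = 0.00775). A 3′ tag outside a lesion does not check the lesion, and whether both genotypes carry the same alleles was not tested. PAD4 had 53, 54 and 36 counts in aig2abc pad4, 153, 22 and 156 in aig2abc, 28, 30 and 25 in pad4 and 154, 161 and 353 in Col-0. All 9 green shoot markers were detected, whereas 1 of 6 root markers had enough counts to be tested.

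Plant histone promoters are known for short shared elements, among them an octamer and a hexamer. The MSA core is known from genes of dividing cells and was searched for beside them. Promoters were taken as the 250 bases before the annotated start in the RefSeq assembly TAIR10.1, matched by gene code, for 27444 genes including all 41 histone genes. The octamer CGCGGATC, on either strand, was in 10 of the 41 histone promoters (24.4%), against 37 of all 27444 (0.135%). Stretches of 6 of the 10 are printed because the same element stands in front of genes with different calls in aig2abc against Col-0: AT1G07660, AT1G09200, HTA10 and HTA6 were lower, AT5G65360 was higher, and AT4G40040 was not called. The capitals mark the octamer or its reverse complement, and AT1G09200 and HTA10 carry it in 2 places.
AT1G07660, an H4 gene (chr1:2368662-2368759, plus strand): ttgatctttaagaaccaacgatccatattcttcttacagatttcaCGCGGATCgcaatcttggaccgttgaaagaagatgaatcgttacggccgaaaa
AT1G09200, an H3.1 gene (chr1:2972335-2972469, minus strand): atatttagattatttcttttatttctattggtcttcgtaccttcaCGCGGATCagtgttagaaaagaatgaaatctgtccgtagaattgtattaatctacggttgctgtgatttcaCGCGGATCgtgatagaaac
AT5G65360, an H3.1 gene (chr5:26120655-26120752, minus strand): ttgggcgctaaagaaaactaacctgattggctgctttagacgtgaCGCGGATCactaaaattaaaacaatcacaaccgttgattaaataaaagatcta
AT4G40040, an H3.3 gene (chr4:18558946-18559007, minus strand): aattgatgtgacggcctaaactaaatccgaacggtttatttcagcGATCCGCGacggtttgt
HTA10, a canonical H2A gene (chr1:18926692-18926810, plus strand): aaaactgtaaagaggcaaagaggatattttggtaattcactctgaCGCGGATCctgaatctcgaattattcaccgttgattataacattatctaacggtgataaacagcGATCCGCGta
HTA6, an H2A.W gene (chr5:24116284-24116381, minus strand): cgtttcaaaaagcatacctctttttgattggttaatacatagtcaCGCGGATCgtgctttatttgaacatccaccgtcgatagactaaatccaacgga

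The hexamer ACGTCA, on either strand, was in 11 of the 41 histone promoters (26.8%), against 7.69% of all promoters. Of these 11, 8 belonged to the 10 H2B genes. Stretches of 4 H2B promoters are printed because the genes share this element and differed in aig2abc, with the hexamer in capitals.
HTB1 (chr1:2412862-2412937, plus strand): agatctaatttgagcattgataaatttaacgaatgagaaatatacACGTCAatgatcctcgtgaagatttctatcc
AT3G53650 (chr3:19889156-19889251, plus strand): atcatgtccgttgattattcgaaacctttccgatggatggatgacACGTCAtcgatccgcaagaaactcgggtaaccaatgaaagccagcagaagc
AT2G37470 (chr2:15736634-15736726, plus strand): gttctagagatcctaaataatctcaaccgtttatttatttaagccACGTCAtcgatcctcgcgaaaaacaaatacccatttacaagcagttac
HTB11 (chr3:16914169-16914264, minus strand): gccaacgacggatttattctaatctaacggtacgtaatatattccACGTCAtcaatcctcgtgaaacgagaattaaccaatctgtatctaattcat

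The MSA core CAACGG was in 13 of 41 (31.7%), against 5.28% of all promoters. Neither TTTCCCGC, a form of the E2F site, nor the telo box AAACCCTA was in any of the 41 windows, against 0.619% and 4.49% of all promoters. These are matches of letters and not sites of binding.

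**Figure D1:**
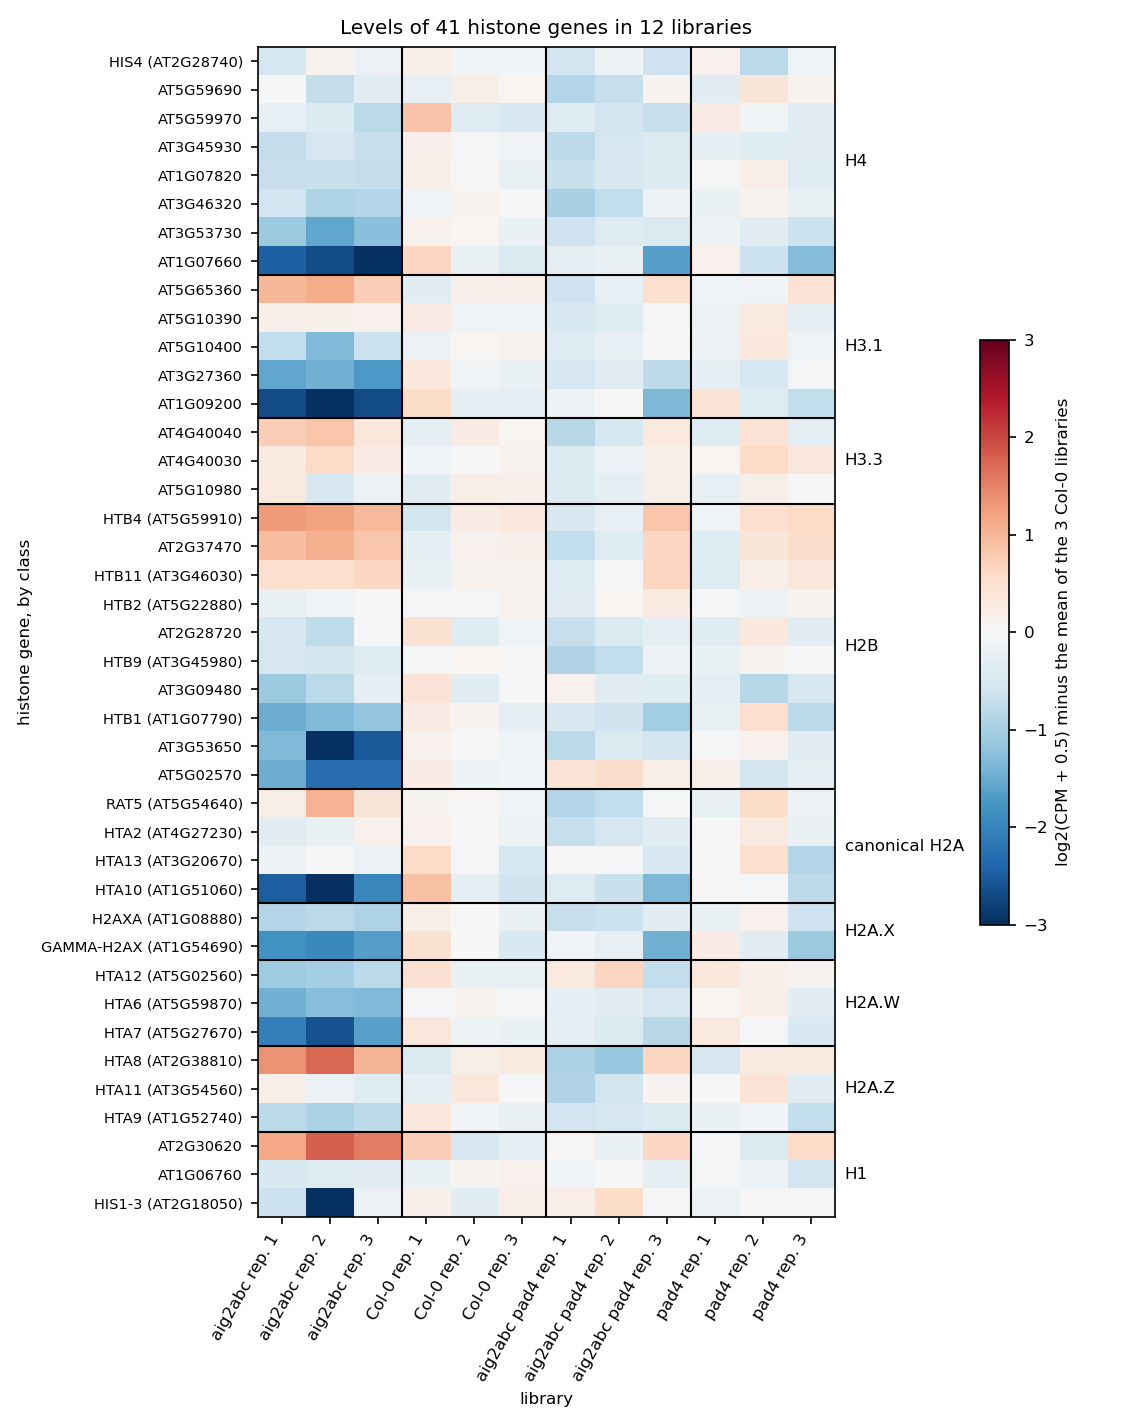
Levels of the 41 histone genes (rows, by class) in the 12 libraries (columns, by genotype). Colour is log2(CPM + 0.5) minus the mean of the 3 Col-0 libraries, where CPM is the TMM-scaled count of a library set to a common total. AT1G07660, AT1G09200, HTA7 and HTA10 are dark blue in all aig2abc columns, AT3G53650 and HIS1-3 are darkest in aig2abc replicate 2, where they had 0 counts, and HTB4, AT2G37470, HTA8 and AT2G30620 are raised in the same columns.

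The first comparison, aig2abc against Col-0, asks which histone transcripts change with the aig2abc mutation while PAD4 is intact. Of the 41 genes, 17 fell and 5 rose at an adjusted p under 0.05 by the quasi-likelihood test of edgeR, Benjamini-Hochberg adjusted over all genes tested. Over all genes 19.5% fell and 18% rose, so the 41.5% of histone genes that fell were above that background and the 12.2% that rose were below it. The falls lay among H4, H3.1, H2A.X and H2A.W genes and some H2B, canonical H2A and H2A.Z genes, and 0 of the 3 H3.3 genes passed the test. The median log2 change of the 41 was -0.61, against -0.08 over all genes. With the replicate axis as a covariate, 11 genes fell and 0 rose, with 5.3% of all genes falling and 3.83% rising, and 9 of the 22 calls were kept. In bulk shoots, fewer cells that make a transcript and less of it per cell cannot be told apart.

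**Figure D2:**
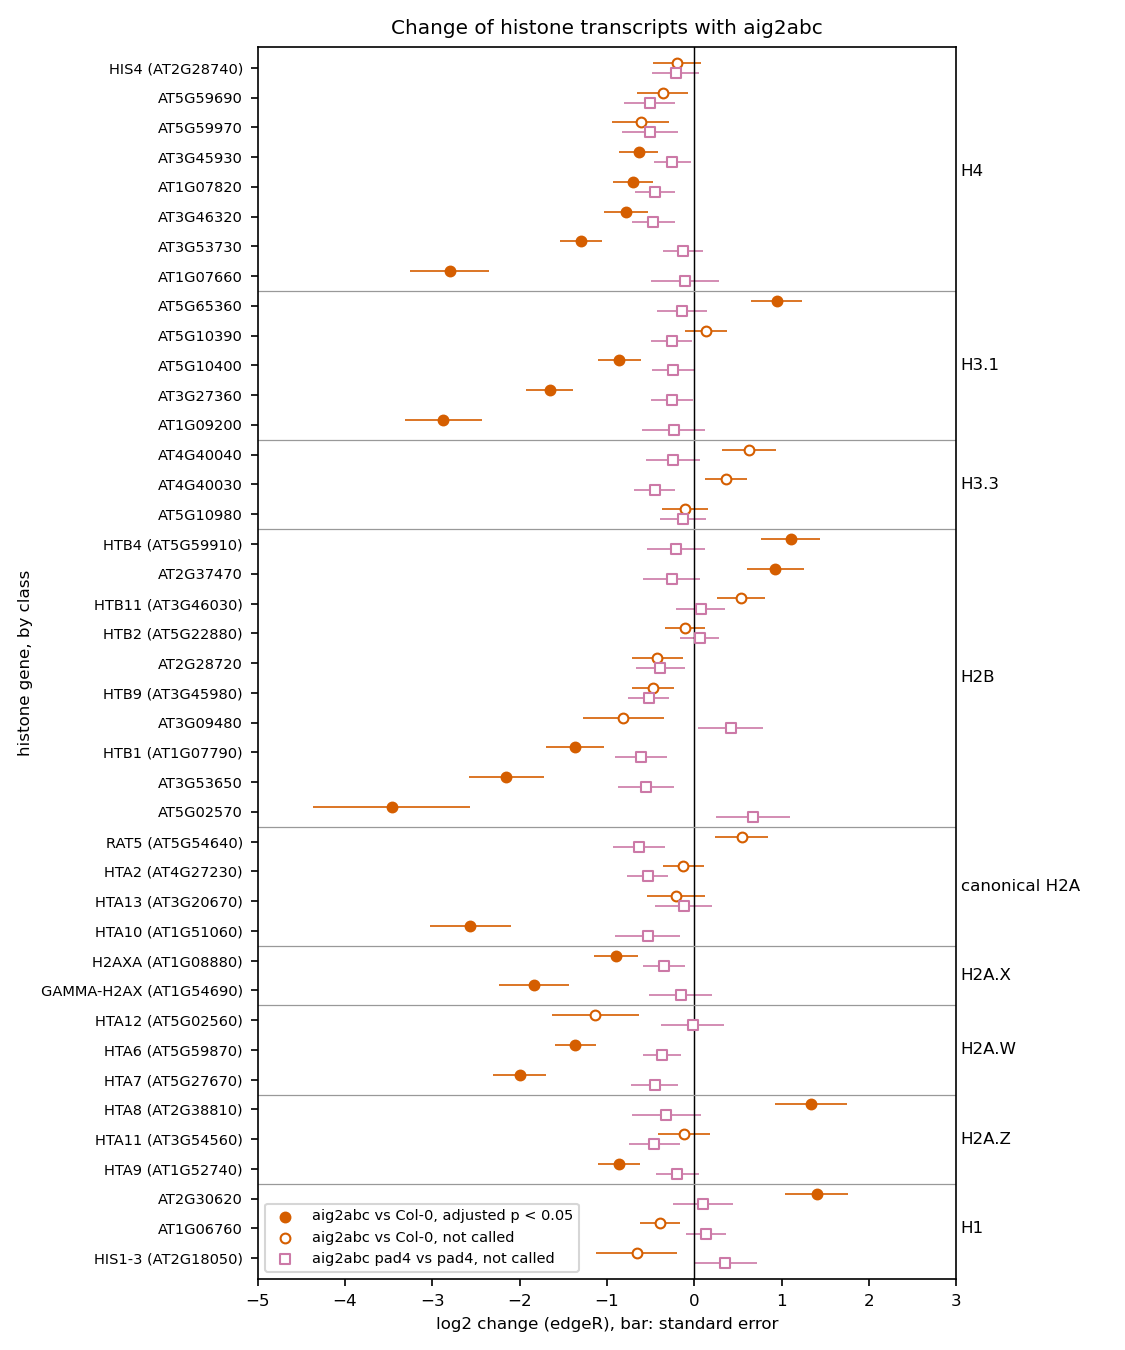
Log2 change of each histone gene with the aig2abc mutation, in edgeR's fit, with its standard error as a bar: aig2abc against Col-0 and aig2abc pad4 against pad4. Filled points had an adjusted p under 0.05. The filled points, 17 below 0 and 5 above it, all belong to aig2abc against Col-0, and the points of aig2abc pad4 against pad4 lie between -0.64 and 0.68.

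Among the 8 H4 genes, which encode the same core histone, 5 fell and 3 did not pass the test. AT1G07660 (chr1:2368833-2369735) had 20.4, 17.4 and 13.8 CPM in aig2abc, against 175, 98.8 and 84.3 CPM in Col-0. AT3G53730 (chr3:19912385-19913515) had 362, 268 and 332 CPM in aig2abc, against 860, 821 and 689 CPM in Col-0. For both genes every aig2abc library lay below every Col-0 library. The log2 change was -2.80 ± 0.46 (SE, n = 3 each, edgeR adjusted p = 0.000345) for AT1G07660 and -1.30 ± 0.24 (adjusted p = 0.000771) for AT3G53730. Under the axis covariate, these became -1.14 and -1.08, with edgeR adjusted p = 0.0211 and 0.0142. The smaller falls were -0.70 for AT1G07820, -0.64 for AT3G45930 and -0.79 for AT3G46320. Each of the 3 lost its call without aig2abc replicate 3, at edgeR adjusted p of 0.0795, 0.0963 and 0.0813, and without Col-0 replicate 2. AT1G07820 and AT3G45930 also lost it without Col-0 replicate 1, AT1G07820 and AT3G46320 without aig2abc replicate 2, and AT3G45930 without aig2abc replicate 1. AT5G59690, which had the most H4 counts, had 1818, 1144 and 1486 CPM in aig2abc, against 1602, 2131 and 1987 CPM in Col-0. Its groups overlapped, and its log2 change was -0.36 ± 0.29 (edgeR adjusted p = 0.34), although with the replicate axis as a covariate it was -1.13 (adjusted p = 0.0178). HIS4 and AT5G59970 had log2 changes of -0.20 and -0.61 without a call. The summed H4 transcripts were 3233, 2462 and 2791 CPM in aig2abc, against 4383, 4617 and 4197 CPM in Col-0, with no overlap.

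The 5 H3.1 genes encode the H3 form that is laid down behind the replication fork, and they moved in opposite directions. AT1G09200 (chr1:2971571-2972334) had 8.16, 5.79 and 8.21 CPM in aig2abc, against 81.5, 45.7 and 44.7 CPM in Col-0. AT3G27360 had 14.1, 15.4 and 12.5 CPM in aig2abc, against 53.2, 39.3 and 36.7 CPM in Col-0. AT5G65360 had 381, 415 and 318 CPM in aig2abc, against 154, 213 and 210 CPM in Col-0. None of these groups overlapped, the first pair being lower in aig2abc and AT5G65360 higher. The log2 changes were -2.87 ± 0.44 (SE, n = 3 each, edgeR adjusted p = 0.000226), -1.66 ± 0.27 (adjusted p = 0.00037) and 0.95 ± 0.29 (adjusted p = 0.0183). In the fit with the axis covariate the falls of AT1G09200 and AT3G27360 were -1.36 (adjusted p = 0.00637) and -1.29 (adjusted p = 0.0099). AT5G10400 also fell, by 0.86 on the log2 scale, and AT5G10390, 577 bases from it on the same strand, had a log2 change of 0.14 without a call. Without aig2abc replicate 2 the call of AT5G10400 was lost (adjusted p = 0.0585). The rise of AT5G65360 was lost without Col-0 replicate 1, aig2abc replicate 1 or aig2abc replicate 2, and with the replicate axis as a covariate its log2 change was 0.03 (adjusted p = 0.966). AT3G27360 shares 328 exon bases with SDH2-1 on the same strand, and its counts are therefore uncertain.

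The summed H3.1 transcripts overlapped between the genotypes, at 642, 639 and 583 CPM in aig2abc and 587, 593 and 590 CPM in Col-0, whereas the shares of AT5G65360 and AT1G09200 in them did not overlap. AT5G65360 supplied 59.6% ± 5.2 of H3.1 counts in aig2abc, against 32.6% ± 5.5 in Col-0 (SD, n = 3 each). AT1G09200 supplied 1.19% ± 0.26 of H3.1 counts in aig2abc, against 9.72% ± 3.6 in Col-0. These shares are descriptions of the counts and carry no test.

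H3.3 is the replacement form of H3, and its 3 genes did not pass the test. AT4G40040, which had the most counts of any histone gene, had 5452, 5816 and 4138 CPM in aig2abc, against 2661, 3899 and 3403 CPM in Col-0. Every aig2abc library lay above every Col-0 library, yet the log2 change of 0.63 ± 0.31 (edgeR) had an adjusted p of 0.122, and with the replicate axis as a covariate it was -0.28. AT4G40030, which lies 42 bases from AT4G40040, and AT5G10980 had log2 changes of 0.36 and -0.11. H3.3 made up 90.1% ± 1.0 of H3 counts in aig2abc, against 86.5% ± 2.1 in Col-0 (SD, n = 3 each). With AT4G40040 left out the share was 48.0% ± 1.9 in aig2abc and 47.5% ± 3.5 in Col-0.

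The H2B genes divided as well, with 3 of 10 lower and 2 higher. HTB1 had 15.6, 17.4 and 19.4 CPM in aig2abc, against 52.1, 46.9 and 36.2 CPM in Col-0. AT3G53650 had 4.45, 0 and 1.64 CPM in aig2abc, against 12.9, 11.8 and 10.8 CPM in Col-0, from 12, 0 and 5 counts in aig2abc. HTB4 (chr5:24126877-24128162), which had the most H2B counts, had 2744, 2613 and 2231 CPM in aig2abc, against 771, 1334 and 1428 CPM in Col-0. All 3 genes separated the groups, HTB1 and AT3G53650 being lower in aig2abc and HTB4 higher. The log2 changes were -1.37 ± 0.33 (SE, n = 3 each, edgeR adjusted p = 0.00498), -2.15 ± 0.43 (adjusted p = 0.00133) and 1.10 ± 0.34 (adjusted p = 0.0181). AT2G37470 rose by 0.93 on the log2 scale, with 254, 280 and 240 CPM in aig2abc and 111, 146 and 148 CPM in Col-0. AT5G02570 had 1 count over the 3 aig2abc libraries, against 49 over the 3 Col-0 libraries, a level 12.3-fold lower with a 95% interval of 2.11 to 495 for counting error. It lies opposite HTA12 over 522 exon bases, and since the strand setting of the counting is not given in the sources used here, its reads and those of HTA12 cannot be told apart.

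Of the 5 H2B calls only the fall of AT3G53650 held both in every omission of a library and with the axis covariate (-2.03, adjusted p = 0.00882). HTB1 and AT5G02570 were not called with the covariate, at -0.83 (adjusted p = 0.195) and -2.89 (adjusted p = 0.115). HTB4 lost its call without Col-0 replicate 1 (adjusted p = 0.0944), aig2abc replicate 1 or aig2abc replicate 2. AT2G37470 lost it in 7 of the 12 omissions, those of any aig2abc or Col-0 library and of aig2abc pad4 replicate 2, where the highest adjusted p was 0.128, with Col-0 replicate 1 omitted. In the fit with the replicate axis, the changes of HTB4 and AT2G37470 turned negative, at -0.16 and -0.24, without a call. AT5G02570 lost its call without aig2abc replicate 3 (adjusted p = 0.0597). The summed H2B transcripts were 3745, 3642 and 3301 CPM in aig2abc, against 1585, 2227 and 2334 CPM in Col-0, and HTB4 alone supplied 70.9% ± 3.0 of H2B counts in aig2abc, against 56.6% ± 6.9 in Col-0 (SD, n = 3 each). The remaining H2B genes HTB2, AT2G28720, HTB9, HTB11 and AT3G09480 were not called, with log2 changes of -0.10, -0.42, -0.48, 0.54 and -0.81.

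Of the 4 canonical H2A genes only HTA10 passed the test. HTA10 (chr1:18926811-18927746) had 5.19, 1.93 and 7.55 CPM in aig2abc, from 14, 1 and 23 counts, against 57.0, 25.5 and 20.3 CPM in Col-0. The groups did not overlap, with a log2 change of -2.56 ± 0.47 (SE, n = 3 each, edgeR adjusted p = 0.000735). Once the replicate axis was a covariate, the change was -1.06 and the call was lost (adjusted p = 0.0876). HTA13, which had the most canonical H2A counts, had 95.3, 102 and 94.5 CPM in aig2abc, against 159, 104 and 73.2 CPM in Col-0, where the replicates spanned both sides of aig2abc. RAT5, known from mutants that resist transformation by Agrobacterium, and HTA2 had log2 changes of 0.54 and -0.13 without a call.

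Both H2A.X genes fell. GAMMA-H2AX (chr1:20414316-20415287) had 18.9, 17.4 and 21.0 CPM in aig2abc, against 92.1, 67.8 and 48.9 CPM in Col-0. H2AXA (chr1:2846894-2848100) had 74.9, 79.1 and 72.5 CPM in aig2abc, against 158, 140 and 122 CPM in Col-0. The aig2abc libraries were close to each other and below all Col-0 libraries. The log2 changes were -1.84 ± 0.40 (SE, n = 3 each, edgeR adjusted p = 0.00244) and -0.90 ± 0.25 (adjusted p = 0.0104). Both calls held in every omission of a library. With the replicate axis as a covariate the changes were -0.40 (adjusted p = 0.488) and -0.92 (adjusted p = 0.0548). GAMMA-H2AX shares 259 and 240 exon bases with AT1G54680 and AT1G07983 on the opposite strand, which makes its counts uncertain.

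The H2A.W genes HTA6 and HTA7 fell. HTA6 (chr5:24115354-24116220) had 42.6, 48.2 and 46.6 CPM in aig2abc, against 115, 123 and 114 CPM in Col-0. HTA7 (chr5:9792509-9793560) had 14.5, 9.65 and 19.7 CPM in aig2abc, against 78.8, 55.3 and 54.2 CPM in Col-0. Neither gene's groups overlapped, and the log2 changes were -1.36 ± 0.23 (SE, n = 3 each, edgeR adjusted p = 0.000497) and -2.0 ± 0.31 (adjusted p = 0.000229). Both calls held in every omission of a library and with the replicate axis as a covariate, where the changes were -1.20 (adjusted p = 0.00591) and -1.19 (adjusted p = 0.0102). HTA12, with 13 counts over the aig2abc libraries, had a log2 change of -1.14 and was not called (adjusted p = 0.0815). The summed H2A.W transcripts were 58.9, 59.8 and 68.6 CPM in aig2abc, against 200, 182 and 172 CPM in Col-0. They made up 7.66% ± 0.71 of H2A counts in aig2abc, against 14.8% ± 1.3 in Col-0 (SD, n = 3 each).

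The 3 H2A.Z genes differed from each other. HTA9 (chr1:19645236-19646485), which had the most H2A.Z counts, had 263, 237 and 266 CPM in aig2abc, against 570, 434 and 391 CPM in Col-0. HTA8 (chr2:16219220-16220928) had 57.8, 75.3 and 45.6 CPM in aig2abc, against 16.4, 25.5 and 26.9 CPM in Col-0. Neither gene's groups overlapped, HTA9 being lower in aig2abc and HTA8 higher. Their log2 changes were -0.86 ± 0.24 (SE, n = 3 each, edgeR adjusted p = 0.0118) and 1.34 ± 0.41 (adjusted p = 0.0176), and HTA11 had -0.12 ± 0.30 without a call. Under the axis covariate, neither was called, at -0.56 and -0.21. HTA8 lost its call without Col-0 replicate 1 (adjusted p = 0.0701), aig2abc replicate 1 or aig2abc replicate 2. The 3 variants H2A.Z, H2A.X and H2A.W together made up 67.9% ± 3.1 of H2A counts in aig2abc, against 77.4% ± 2.2 in Col-0. The H2A.Z share itself was 48.6% ± 3.2 in aig2abc and 46.0% ± 1.3 in Col-0, with overlap, and the H2A.X share was 11.6% ± 0.076 in aig2abc and 16.6% ± 0.50 in Col-0.

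For the linker histones, AT2G30620 rose and the others were not called. AT2G30620 (chr2:13044931-13046682) had 70.4, 108 and 90.6 CPM in aig2abc, against 52.5, 22.1 and 25.7 CPM in Col-0. All aig2abc libraries lay above all Col-0 libraries, with a log2 change of 1.40 ± 0.36 (SE, n = 3 each, edgeR adjusted p = 0.0065). The call held in every omission of a library. In the fit with the replicate axis, the change was 1.33 and was not called (adjusted p = 0.138). AT1G06760, which had the most H1 counts, had 142, 149 and 155 CPM in aig2abc, against 168, 204 and 212 CPM in Col-0, a log2 change of -0.39 ± 0.23 (edgeR adjusted p = 0.187), and it shares 484 exon bases with AT1G04503 on the opposite strand. HIS1-3, a linker histone known to be induced by drought, had 16 counts in all in aig2abc and was not called, at -0.66.

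**Figure D3:**
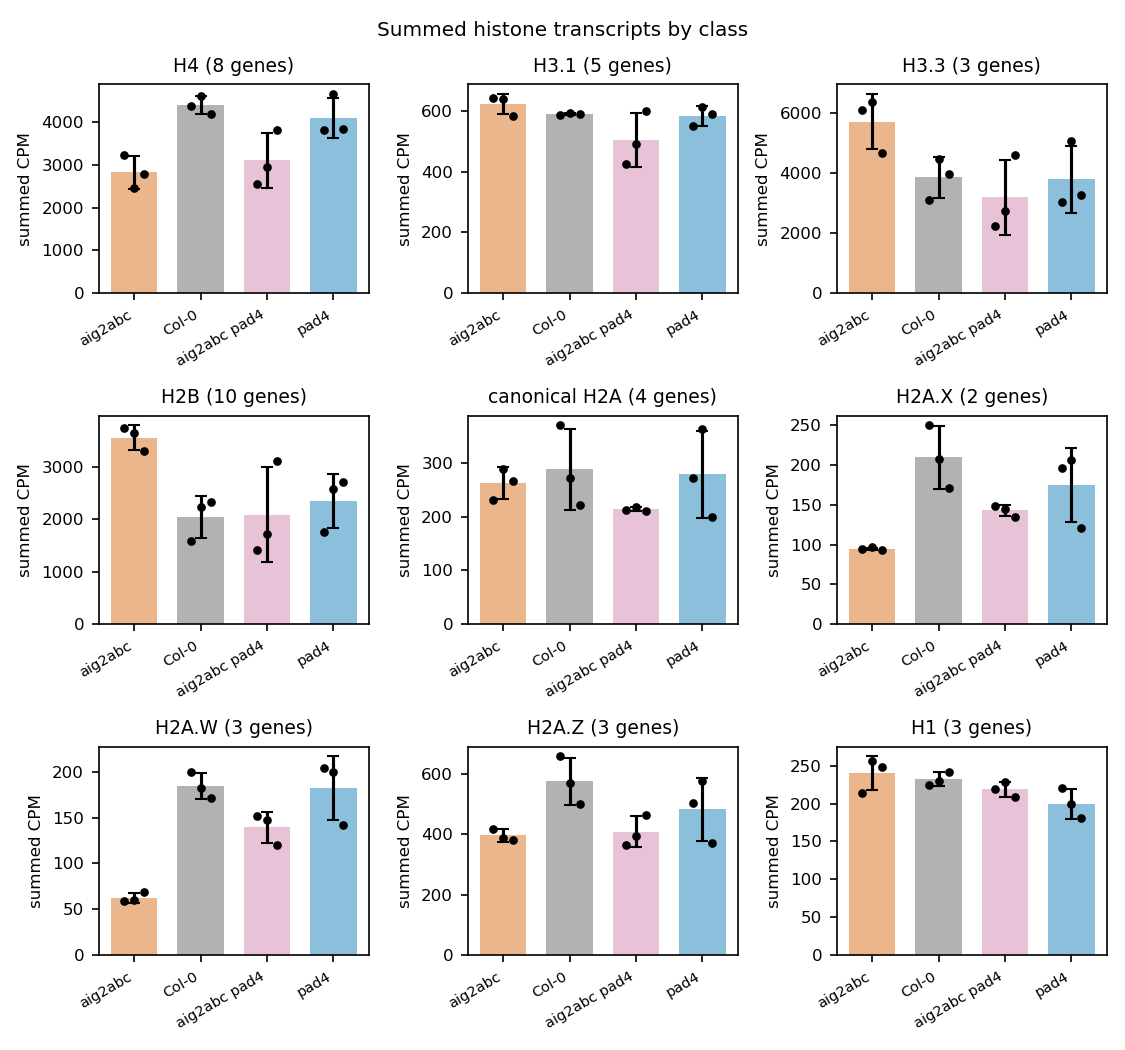
Summed transcripts of each histone class in CPM, with 1 point per library, bars for the mean of the 3 libraries of a genotype and whiskers for their SD. H2A.W sums lie between 58.9 and 68.6 CPM in aig2abc, against 172 to 200 CPM in Col-0, whereas H2B sums lie between 3301 and 3745 CPM in aig2abc, against 1585 to 2334 CPM in Col-0.

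The sum over all 41 genes was 14733, 14201 and 12404 CPM in aig2abc, against 11370, 13375 and 12415 CPM in Col-0, with overlap. Annotated features of the genes were set beside their calls. The median transcript length was 833 bases for the 17 that fell, 1002 for the 5 that rose and 794 for the 19 not called. The median GC content of the last 300 bases was 34.3%, 35.3% and 36.0% in the same order. In that stretch no histone gene matched another over 50 or more bases at 95% identity or more. The octamer printed above was in 5 of 17 promoters of genes that fell, 1 of 5 of those that rose and 4 of 19 of those not called. AT1G09200 and AT5G65360, H3.1 genes that moved in opposite directions, both carry it. The hexamer was in 5 of 17, 1 of 5 and 5 of 19, and among the printed H2B stretches HTB1 and AT3G53650 fell, AT2G37470 rose and HTB11 was not called. The MSA core was in 8 of 17, 1 of 5 and 4 of 19.

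The second comparison, aig2abc pad4 against pad4, repeats the aig2abc contrast in plants without PAD4. Of the 41 genes, 0 fell and 0 rose by edgeR's quasi-likelihood test, against 0.663% and 3.34% of all genes, and DESeq2 and limma-voom also called 0. At an unadjusted p under 0.05, 3 were lower by edgeR (HTB9, RAT5 and HTA2), 6 by DESeq2 and 4 by limma-voom. The share of all genes at that unadjusted threshold is not given, here or below, so such counts have no background beside them. The log2 changes lay between -0.64 and 0.68 with a median of -0.25, and 34 of the 41 were negative, while the median over all genes was -0.02. Once the replicate axis was a covariate, 2 of the 41 genes fell, HTB9 by 0.52 and HTA10 by 0.65 on the log2 scale (edgeR). In that fit 757 of all 15082 genes fell and 960 rose, so these calls are to be read against that background. HTB9 shares 249 and 22 exon bases with AT3G07315 and EXLA1 on the opposite strand, which makes its counts uncertain. Leaving out aig2abc pad4 replicate 3 called HTA8 lower, with 317 of all 15875 genes lower.

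The 3 genes with the smallest p in aig2abc against Col-0 were not called here. AT1G09200 had 49.8, 55 and 21.2 CPM in aig2abc pad4, against 73.7, 42.4 and 32.6 CPM in pad4. AT1G07660 had 91.8, 97.1 and 35.7 CPM in aig2abc pad4, against 124, 72.4 and 45.4 CPM in pad4. HTA7 had 50.1, 46.7 and 34.7 CPM in aig2abc pad4, against 76.0, 59.6 and 44.8 CPM in pad4. The groups overlapped for all 3 genes, with log2 changes of -0.24 ± 0.36, -0.10 ± 0.39 and -0.45 ± 0.27 (SE, n = 3 each). AT5G02570, HTA10 and AT3G53650, which fell by more than HTA7 in aig2abc against Col-0, had log2 changes of 0.68, -0.53 and -0.55 here. HTA6, with 95.6, 93.0 and 83.0 CPM in aig2abc pad4 and 123, 135 and 92.7 CPM in pad4, had a log2 change of -0.37 ± 0.22 (edgeR adjusted p = 0.517). AT4G40040 had 1828, 2289 and 4015 CPM in aig2abc pad4 and 2531, 4396 and 2681 CPM in pad4, and HTB4 had 812, 961 and 2017 CPM in aig2abc pad4 and 1043, 1603 and 1732 CPM in pad4. In both genes aig2abc pad4 replicates 1 and 2 were below all pad4 libraries and replicate 3 was not. H2A.W made up 15.5% ± 2.2 of H2A counts in aig2abc pad4, against 16.4% ± 1.4 in pad4, and H3.3 made up 85.8% ± 2.4 of H3 counts in aig2abc pad4, against 86.2% ± 2.6 in pad4 (SD, n = 3 each).

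The third comparison, pad4 against Col-0, asks what the loss of PAD4 alone does. Of the 41 genes, 0 rose and 0 fell by edgeR, against 0.00663% and 0.683% of all genes. The count was also 0 at an unadjusted p under 0.05, and DESeq2 and limma-voom gave 0 at both thresholds. The log2 changes lay between -0.65 (AT3G09480) and 0.33 with a median of -0.07. Class sums overlapped for every class but H1. H4 had 3828, 4651 and 3851 CPM in pad4 and 4383, 4617 and 4197 CPM in Col-0. H2A.X had 197, 206 and 121 CPM in pad4 and 250, 208 and 171 CPM in Col-0. The H1 sums were 220, 199 and 180 CPM in pad4, all below the 225, 229 and 242 CPM in Col-0.

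The fourth comparison, aig2abc pad4 against aig2abc, shares the aig2abc libraries with the first. Of the 41 genes, 10 rose and 7 fell, against 12.8% and 11.5% of all genes. The genes that rose were AT1G07660, AT3G53730, AT1G09200, AT3G27360, AT5G02570, AT3G53650, HTA10, GAMMA-H2AX, HTA6 and HTA7. The genes that fell were AT5G65360, AT4G40040, HTB4, AT2G37470, RAT5, HTA8 and AT2G30620. AT1G09200 had the smallest p, with 49.8, 55 and 21.2 CPM in aig2abc pad4 against 8.16, 5.79 and 8.21 CPM in aig2abc, a log2 change of 2.43 ± 0.44 (SE, n = 3 each, edgeR adjusted p = 0.00269). HTA7 changed by 1.48 ± 0.31 (adjusted p = 0.00473), AT1G07660 by 2.13 ± 0.45 (adjusted p = 0.00502), HTA6 by 0.99 ± 0.23 (adjusted p = 0.00801) and AT3G27360 by 1.11 ± 0.27 (adjusted p = 0.00975). AT5G02570 had 62 counts over the aig2abc pad4 libraries against 1 in aig2abc, 16.8-fold higher with a 95% interval of 2.91 to 674. Of the genes that fell, HTA8 had 11.4, 9.95 and 34.9 CPM in aig2abc pad4 against 57.8, 75.3 and 45.6 CPM in aig2abc, a log2 change of -1.64 ± 0.42 (adjusted p = 0.0113). AT2G30620 had 31.8, 26.8 and 48.3 CPM in aig2abc pad4 against 70.4, 108 and 90.6 CPM in aig2abc, a log2 change of -1.31 ± 0.36 (adjusted p = 0.0162). In both genes aig2abc pad4 replicate 3 was the nearest to aig2abc, without overlap. Of the 17 calls, 5 held in every omission of a library (AT1G07660, AT1G09200, AT5G02570, HTA6 and HTA7) and 12 did not. With the replicate axis as a covariate 0 of the 41 passed in either direction by edgeR, with 9 higher and 3 lower at an unadjusted p under 0.05. The loss of calls was not limited to histone genes. Of all 15082 genes, 197 were called higher and 128 lower in that fit, against 1924 and 1737 without the covariate. Without aig2abc pad4 replicate 1 or replicate 2 the number of histone genes that fell was 0. Over all genes 488 of 15182 and 455 of 15786 fell in these fits.

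The interaction asks directly whether the aig2abc change differed between plants without and with PAD4. By edgeR 9 of the 41 genes were higher and 0 lower, against 8.53% and 6.23% of all genes. At an unadjusted p under 0.05, 10 were higher and 7 lower, and for the lower direction DESeq2 called 2 and limma-voom 1. A positive value means that the change in aig2abc pad4 over pad4 was higher than the change in aig2abc over Col-0. AT1G09200, at 2.64 ± 0.57 (SE, n = 3 in each of 4 groups, edgeR adjusted p = 0.0147), and AT1G07660, at 2.70 ± 0.60 (adjusted p = 0.016), held in every omission of a library. The others were AT3G53730, AT3G27360, AT5G02570, HTA10, GAMMA-H2AX, HTA6 and HTA7, and each lost its call in some omission. The number called higher was 2 without aig2abc pad4 replicate 2, and the number called lower was 8 without aig2abc pad4 replicate 3. Over all genes 340 of 15786 were higher in the first of these fits, and 2145 of 15875 were lower in the second. Under the axis covariate, 0 of the 41 were called in either direction, with 9 higher and 1 lower at an unadjusted p under 0.05. Of all 15082 genes, 72 were called higher and 14 lower in that fit, against 1287 and 940 without the covariate.

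Replicates 3 and 1 of pad4, and those of aig2abc pad4, differed in the histone genes along a similar order to that of aig2abc against Col-0. The pad4 library called replicate 3 carries that number in the count table, while the title left for it is numbered 4, so its number is uncertain and its genotype is not. Between pad4 replicate 3 and pad4 replicate 1, which share no library with that comparison, 15 of the 17 genes that had fallen in aig2abc were lower and 5 of the 5 that had risen were higher. AT1G07660 differed by -1.44, AT1G09200 by -1.17, GAMMA-H2AX by -1.34, HTB4 by 0.73 and HTA8 by 0.78 on the log2 scale. Across the 41 genes the difference and the aig2abc change had a Pearson r of 0.78 and a Spearman rho of 0.75. Between aig2abc pad4 replicate 3 and replicate 1, 9 of the 17 were lower and 5 of the 5 were higher, with r of 0.78 and rho of 0.81. AT1G07660 differed by -1.36, AT1G09200 by -1.22, HTB4 by 1.31 and HTA8 by 1.58. The order was less similar for replicate 2 against replicate 1. The r was 0.59 in pad4, where 9 of the 17 were lower and 4 of the 5 were higher in replicate 2. In aig2abc pad4 the r was 0.18, with 5 of the 17 lower and 3 of the 5 higher. These correlations are across genes of shared libraries and describe these libraries only. The same counts and correlations were not computed over all genes, so whether the pattern is particular to histone genes was not tested. HTA6, AT3G27360, AT3G53730 and AT3G53650 differed by between -0.50 and 0.26 between replicates 3 and 1 of pad4 and of aig2abc pad4, and changed by -1.36, -1.66, -1.30 and -2.15 in aig2abc. What the libraries of a genotype differed in was not tested.

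**Figure D4:**
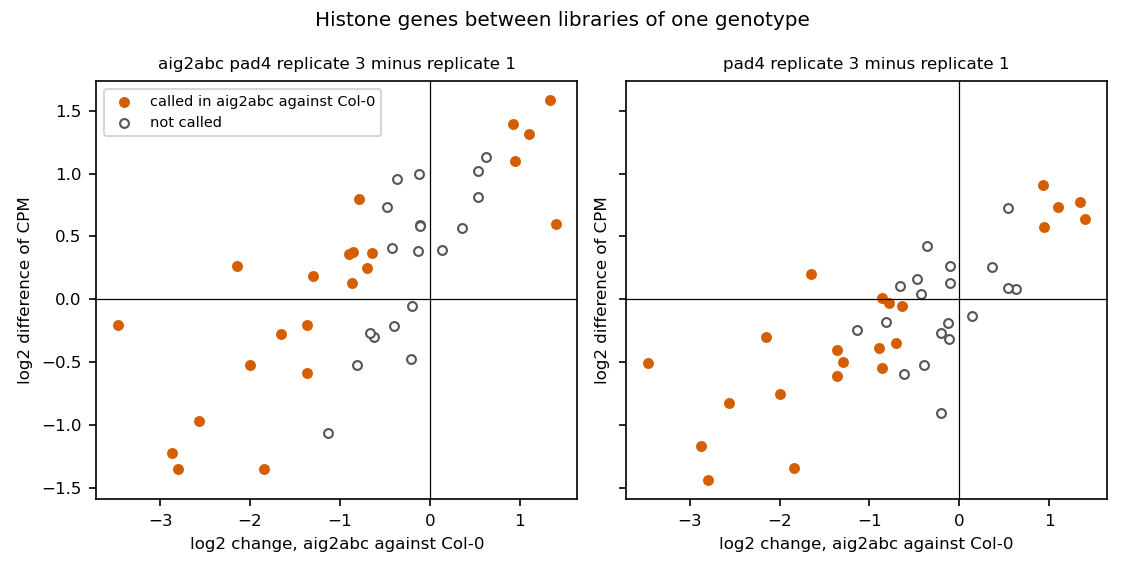
Difference in log2 CPM between replicate 3 and replicate 1 of aig2abc pad4 and of pad4 (y axes) against the log2 change in aig2abc over Col-0 (x axes), with 1 point per histone gene. Orange points were called in aig2abc against Col-0. The points run upward in both panels, with r of 0.78 in each.

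Genes that act with histones were read from lists of replication, division, regulation and chaperone genes. In aig2abc against Col-0, 3 of 14 tested S-phase and replication genes rose and 1 fell, shares to be read against the 18% of all genes that rose and the 19.5% that fell. The helicase subunits MCM4 and MCM5 rose, by 1.53 ± 0.37 and 1.87 ± 0.60 on the log2 scale, as did RNR1, the large subunit of ribonucleotide reductase, by 0.90 ± 0.24 (SE, n = 3 each, edgeR adjusted p = 0.00463, 0.0213 and 0.00879). MCM5 rested on 10, 9 and 14 counts in aig2abc. These were 3.71, 17.4 and 4.60 CPM, highest in the shallowest library, against 1.67, 2.02 and 1.60 CPM in Col-0. TSO2, a small subunit of the same enzyme, fell, with 15.6, 11.6 and 19.7 CPM in aig2abc against 46.9, 39.6 and 36.0 CPM in Col-0 and a log2 change of -1.31 ± 0.26 (adjusted p = 0.00146). Among 11 tested genes of G2 and M phase 1 fell, the mitotic kinase CDKB2;2, with 1 count over the aig2abc libraries. Of 12 tested cell cycle regulators 2 fell, the cyclin-dependent kinase inhibitors SIM (-1.46 ± 0.46, adjusted p = 0.0194) and KRP2, which had 3, 0 and 0 counts in aig2abc. The summed transcripts of the 19 listed G2 and M phase genes, which also mark dividing cells, were 45.2, 27.0 and 48.6 CPM in aig2abc, against 50.3, 55 and 52.3 CPM in Col-0, and their part in the histone changes was not tested.

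Of 13 tested histone chaperones 2 rose, a share no higher than the 18% of all genes that rose. NAP1;2, a chaperone of H2A and H2B, had 863, 857 and 826 CPM in aig2abc, against 318, 226 and 324 CPM in Col-0, a log2 change of 1.55 ± 0.27 (SE, n = 3 each, edgeR adjusted p = 0.000507). FAS2, a subunit of the assembly factor that loads H3.1 behind the replication fork, changed by 1.89 ± 0.57 (adjusted p = 0.0154), from 29, 3 and 16 counts in aig2abc. Of 4 tested genes that handle H2A.Z or H2A.W 1 fell, AT2G47210 (-1.24 ± 0.35, adjusted p = 0.0117). Of 8 histone genes outside the 41, 2 had enough counts to be tested, and the centromeric H3 gene HTR12 and HTR11 were not called. In the fit with the replicate axis, 1 gene of the replication, division, regulator, chaperone and variant-handling lists was called, a chaperone that rose, while 5 of the 9 green shoot markers were called lower. The green shoot markers moved with the same comparison: 5 of 9 fell, among them CAB1 by 2.46 and RBCS2B by 2.19 on the log2 scale, their sum was 36208, 42043 and 38114 CPM in aig2abc against 55686, 62506 and 47931 CPM in Col-0, and their part in the histone changes was not tested. In aig2abc pad4 against pad4 and in pad4 against Col-0, edgeR and limma-voom called 0 genes of these lists, and DESeq2 called 1, a green shoot marker lower in aig2abc pad4. At an unadjusted p under 0.05 edgeR gave 2 S-phase genes, 1 G2 and M phase gene and 4 green shoot markers as lower in aig2abc pad4 than in pad4, and 3 S-phase genes, 1 G2 and M phase gene, 1 regulator and 1 histone gene outside the 41 as higher in pad4 than in Col-0. Once the replicate axis was a covariate, 2 of 14 tested S-phase genes, 1 of 11 G2 and M phase genes and 4 of 9 green shoot markers were called lower in aig2abc pad4. In that fit 757 of all 15082 genes were called lower.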

How the data were processed

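The 41 genes, the gene lists and the tests were chosen with earlier results of these data known. The deposited table holds raw counts per gene, made by the authors with STAR on the TAIR10 build, with edgeR also named, per the submitters' processing notes; whether reads were counted by strand is not given in the sources used here. Library totals ran from 584342 to 10697612 counts, and the shallow aig2abc libraries limit the precision of low genes; counting intervals cover counting error only, at a 95% level. The counts were fitted in edgeR 4.0.16 (R 4.3.3) over all 12 libraries, with TMM scaling, its filter on low counts, the quasi-likelihood test and Benjamini-Hochberg adjustment over 15082 genes. CPM are TMM-scaled counts set to a common library total of 1000000 and are not divided by length, so a gene said to have the most counts in its class has the most tags, and levels per length are not compared between genes. The scripts were tested on simulated data. The replicate axis is the first principal component of deviations from the genotype means in the 9 libraries outside aig2abc and holds 52.5% of their variance. Alternatives used DESeq2 1.42.0, limma 3.58.1 (voom), RLE scaling, other filters, thinning, a replicate block, the axis and omission of each library. Named genes were up to 8 called histone genes with the smallest p in each comparison, the gene of highest mean CPM in each class, the targeted genes, and up to 4 called genes of each other list; further histone genes are named after their values were seen. Promoters and gene models came from RefSeq on TAIR10.1, matched by gene code, and no coordinate was converted between builds. Histone 3′ ends were compared with BLAST+ 2.17.0. Tables and figures used Python 3.11.15, pandas 2.3.3 and matplotlib 3.10.9.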

Additional observations from a re-analysis of the deposited data

Results flagged for a closer look

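The change with aig2abc differed between plants without and with PAD4 for 9 histone genes, by the interaction term of edgeR's quasi-likelihood fit with Benjamini-Hochberg adjustment. The difference, the log2 change of aig2abc pad4 over pad4 minus that of aig2abc over Col-0, was 2.70 for AT1G07660, 1.17 for AT3G53730, 2.64 for AT1G09200, 1.40 for AT3G27360 and 4.14 for AT5G02570. It was 1.68 for GAMMA-H2AX, 1.00 for HTA6, 1.55 for HTA7 and 2.03 for HTA10. The genotypes aig2abc and aig2abc pad4 also differed at the targeted genes AIG2A and AIG2B, and whether they carry the same alleles was not tested. With the replicate axis as a covariate none of the 9 was called, and 7 of the 9 lost their call in some omission of a library. Few genes of any kind passed with the covariate, 72 of all 15082 being higher and 14 lower, against 1287 and 940 without it.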

How the results depend on the processing

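With the replicate axis as a covariate, aig2abc against Col-0 gave 0 histone genes higher and 11 lower (5 and 17 without it), aig2abc pad4 against pad4 gave 2 lower (0 without it), aig2abc pad4 against aig2abc gave 0 higher and 0 lower (10 and 7 without it), and the interaction gave 0 higher (9 without it). Over all 15082 genes, the fit with this covariate gave 577 higher and 800 lower in aig2abc against Col-0. For aig2abc pad4 against pad4 it gave 960 and 757, and for aig2abc pad4 against aig2abc 197 and 128. For the interaction it gave 72 and 14. In aig2abc against Col-0 the log2 changes of HTB4 (-0.16), AT2G37470 (-0.24) and HTA8 (-0.21) reversed under the covariate. Those of HTB4 (0.039) and GAMMA-H2AX (-0.033) reversed in aig2abc pad4 against aig2abc. The cause was not tested. The interaction gave 0 genes lower, against 2 by DESeq2, 1 by limma-voom, 1 with no filter on low counts, 3 with the replicate block and 3 with counts thinned to the smallest total. When single libraries were left out, aig2abc against Col-0 gave 1 to 5 higher and 13 to 18 lower, aig2abc pad4 against pad4 gave 0 higher and 0 to 1 lower, pad4 against Col-0 gave 0 in both directions, aig2abc pad4 against aig2abc gave 6 to 12 higher and 0 to 8 lower, and the interaction gave 2 to 10 higher and 0 to 8 lower. The calls over all genes moved as well. They ran from 1657 to 2953 higher and 1980 to 3257 lower in aig2abc against Col-0. In aig2abc pad4 against aig2abc they ran from 921 to 2794 and 455 to 2709, and in the interaction from 323 to 2443 and 89 to 2145. The H3.3 share of H3 then ranged over 84.4 to 86.7% in aig2abc pad4, 89.7 to 90.7% in aig2abc, 84.7 to 87.0% in pad4 and 85.6 to 87.7% in Col-0, and the variant share of H2A over 75.9 to 76.7%, 66.2 to 69.2%, 74.5 to 76.4% and 76.4 to 78.6% in the same order. Same-numbered libraries were not treated as pairs in the main fit. Over 15 pairs the correlation of deviations ran from -0.27 to 0.55, with 5 over 0.1. Among replicate 1 libraries it was 0.52 for Col-0 and pad4, 0.54 for Col-0 and aig2abc pad4, and 0.55 for pad4 and aig2abc pad4. For replicate 3 of Col-0 and aig2abc pad4 it was 0.43. Replicate 1 also had the highest axis score within Col-0, pad4 and aig2abc pad4. Whether libraries of the same number share a batch was not tested. With the replicate block, in which the pad4 library of uncertain number had a level of its own, aig2abc against Col-0 gave 5 higher and 17 lower and the interaction 7 higher and 3 lower. The 584342 counts of aig2abc replicate 2 limit what can be said of genes such as AT5G02570, AT3G53650 and HTA10.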
